A study of Drosophila melanogaster with 8 samples.

Results

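The genes described here make the steroid hormone ecdysone or form its receptor in Drosophila melanogaster. They are the synthesis genes nvd, sro, spo, spok, phm, dib, sad and shd, and the receptor genes EcR and usp. They were chosen by name, and 9 of the 10 have a row among the 15682 genes counted in each library. The gene nvd has none under its reference identifier and was not analysed here. RNA was measured in whole ovaries of flies aged 4 to 6 days, in 8 libraries that form 4 groups of 2. The piwi mutant ovaries carried the alleles piwi1 and piwi2, and their control carried the driver nos-GAL4-VP16. The RnpS1 knockdown (KD) ovaries expressed a dsRNA against RnpS1 under tj-GAL4, which is active in the somatic follicle cells, and an shRNA against RnpS1 under nos-GAL4-VP16, which is active in the germline. Their control carried tj-GAL4 and nos-GAL4-VP16 without an RnpS1 hairpin. Thus the piwi mutants were labelled with no driver while their control had one, and the KD ovaries shared both drivers with theirs. The labels do not say whether the 2 libraries of a group came from separate flies, so the p-values measure the spread between libraries, which may be technical.

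Ecdysone is built from dietary sterol. The oxygenase Nvd takes the first step, an uncharacterised middle stretch called the black box needs Sro (shroud) and the cytochromes Spo (spook) or Spok (spookier), and Phm (phantom), Dib (disembodied) and Sad (shadow) then add hydroxyl groups. Shd (shade) converts ecdysone to its active form, 20-hydroxyecdysone, which binds a nuclear receptor made of EcR and Usp (ultraspiracle). In adult females the follicle cells of the ovary are a source of the hormone, and the signal is known for its roles in follicle development and in germline stem cell maintenance. The close relatives spo and spok are known for different places of use: spo in embryos and the adult ovary, and spok in the larval prothoracic gland.

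The libraries held 37426999 to 86692865 reads counted to genes. Values are given as CPM, the count of a gene scaled to 1000000 of these reads in its library. The targeted genes behaved as labelled for RnpS1: its mRNA was 8.75 and 3.78 CPM in KD ovaries, against 45.0 and 39.6 CPM in their control. The piwi mRNA was 202 and 193 CPM in piwi mutants, against 316 and 312 CPM in their control, and it was 189 and 156 CPM in KD ovaries, against 414 and 337 CPM in theirs. Germline markers were abundant in each library, with 7 genes such as osk and orb summing to 2470 to 3443 CPM, and the 7 early follicle cell markers summed to 175 to 294 CPM. The late follicle cell eggshell genes, which follicles switch on in their later stages, varied widely among libraries. Their 17 members summed to 801 and 2133 CPM in piwi mutants, against 12175 and 8885 CPM in their control, and to 4452 and 15961 CPM in KD ovaries, against 10626 and 24087 CPM in theirs. In such bulk samples, fewer cells of a type and less RNA per cell cannot be told apart.

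Per kilobase of annotated exon, the receptor genes stood above the enzymes in every group. Mean usp was 46.6 CPM per kilobase in piwi mutants, 43.7 in the piwi control, 50.7 in KD ovaries and 49.2 in the RnpS1 control. Mean EcR lay between 14.0 and 16.0 CPM per kilobase in the 4 groups. Below them, the library ranges of neighbouring enzymes often overlapped. In the RnpS1 control the range of spo, at 8.21 to 17.5 CPM per kilobase, also overlapped that of EcR. The gene spok was the lowest of the 9 in both controls, at 0.0179 CPM per kilobase in the piwi control and 0.0284 in the RnpS1 control, and its libraries lay below those of every other member. In the perturbed groups its mean ranked above those of several core enzymes. The mean of 2.44 CPM per kilobase had rank 6 in piwi mutants, where its range of 1.53 to 3.34 spanned those of sro and dib below it. In KD ovaries its mean of 3.97 had rank 4, with a range that overlapped those of its neighbours in the order.

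**Figure D1:**
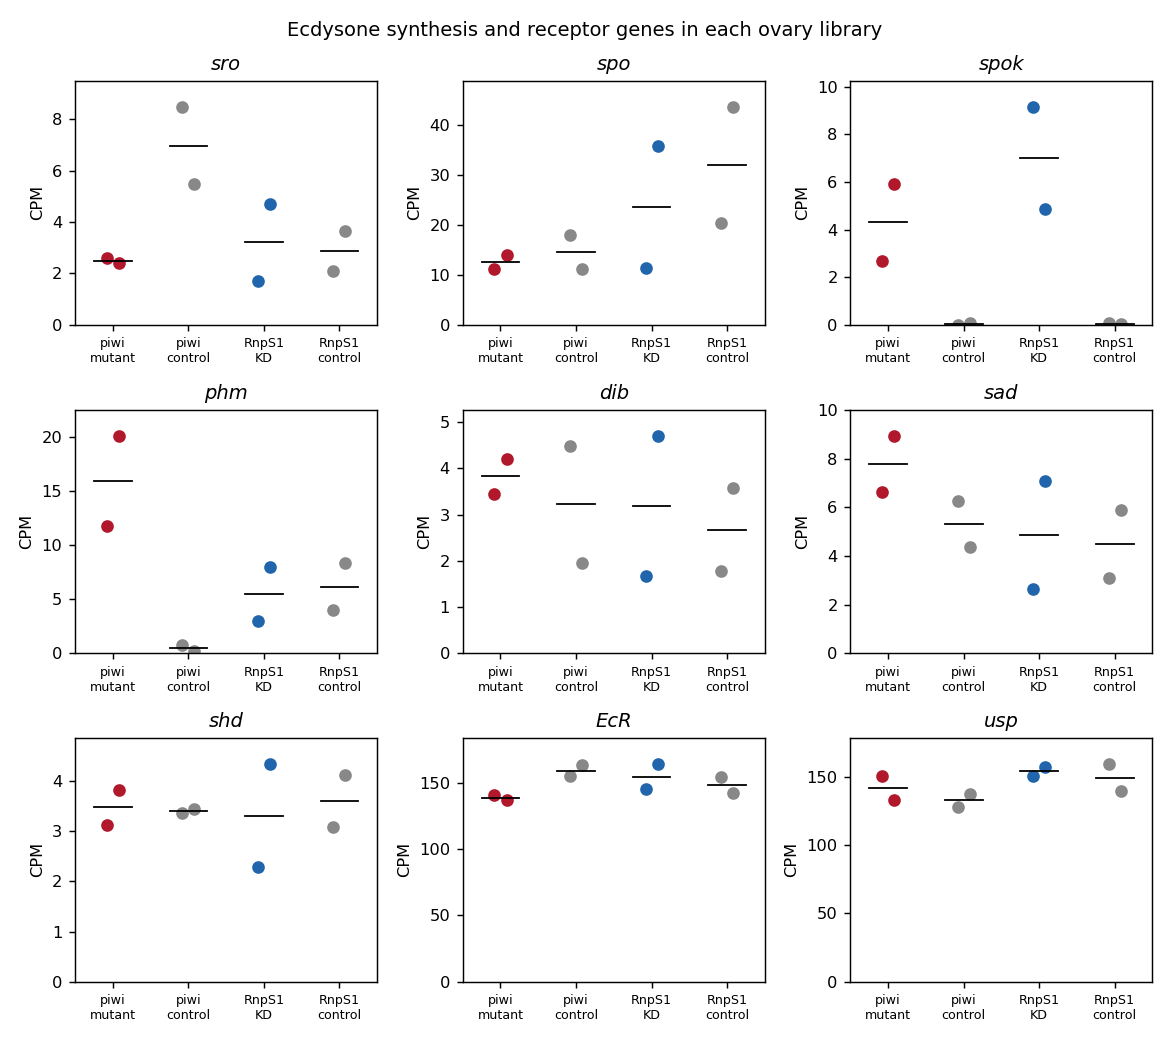
CPM of the 9 genes in each library, 1 panel per gene with its own linear axis from 0; points are libraries and bars are the means of 2. spok is near 0 in the 4 control libraries and at 2.70 to 9.15 CPM in the 4 mutant and KD libraries, while EcR and usp lie between 128 and 164 CPM throughout.

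Of the 9 genes, spok and phm rose in piwi mutants and none fell. That was 2 higher of 9 tested, where 6.37% of all 10434 genes tested rose and 5.06% fell, 11.4% in all. In KD ovaries spok alone rose, 1 of 9, where 0.882% of all genes rose and 0.738% fell, 1.62% in all. The call is an adjusted p of 0.05 or less in edgeR's quasi-likelihood test over all 8 libraries. The median log2 fold change of the 9 genes was -0.07 in piwi mutants and -0.05 in KD ovaries, against 0.01 over all genes in each comparison. With library totals in place of TMM scaling, the medians of all genes were 0.17 and 0.12 instead, so small changes shift by about that much.

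The change in spok was the largest of the 9 genes in both comparisons. It had 126 and 301 counts in piwi mutants, against 0 and 3 in their control. It had 694 and 422 counts in KD ovaries, against 6 and 1 in theirs. As CPM these were 2.70 and 5.91 in piwi mutants, against 0 and 0.0634 in the piwi control, and 9.15 and 4.87 in KD ovaries, against 0.0799 and 0.0206 in the RnpS1 control. Each mutant or KD library lay far above each control library, and the groups did not overlap. The pooled counts gave a ratio of 124 in piwi mutants (exact 95% interval 42.0 to 601) and of 121 in KD ovaries (58.6 to 302), where the intervals cover counting error only.

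The fitted log2 fold change of spok was 6.74 (SE 1.11, edgeR adjusted p = 0.0197) in piwi mutants and 6.86 (SE 1.06, adjusted p = 0.0343) in KD ovaries. The difference between these changes, KD minus mutant, was 0.12 (SE 1.91, adjusted p = 0.993), an estimate too wide to show that they were alike. Without any 1 of the 4 mutant or piwi control libraries the call was lost, with the adjusted p raised to at most 0.0838. The fold change then stayed between 5.91 and 10.96 on the log2 scale, and its upper end, against a lone control library with 0 counts, depends on the prior count of the fit. In the RnpS1 comparison the call was lost without any 1 of its own 4 libraries or of the 2 piwi mutant libraries, with an adjusted p of at most 0.141 and 6.30 to 8.14 on the log2 scale. It was also lost with the KD ovaries and their control fitted alone (adjusted p = 0.102).

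The relatives spo and spok were also compared within each library, as the share of spok among the reads of both. It was 19.5% (Wilson 95% interval 16.6 to 22.7) and 29.6% (26.9 to 32.5) in piwi mutants. In the piwi control it was 0 of 668 reads, which allows a share of up to 0.449% by the rule of 3 counts (Wilson upper limit 0.572%), and 0.567% (0.193 to 1.65). The share was 44.7% (42.2 to 47.2) and 11.97% (10.9 to 13.1) in KD ovaries, against 0.389% (0.179 to 0.847) and 0.0474% (0.00837 to 0.268) in the RnpS1 control. Every mutant and KD library was above every control library. The gap between the KD libraries came from both genes: replicate 2 had 0.532 times the spok CPM of replicate 1 and 3.16 times its spo CPM.

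**Figure D2:**
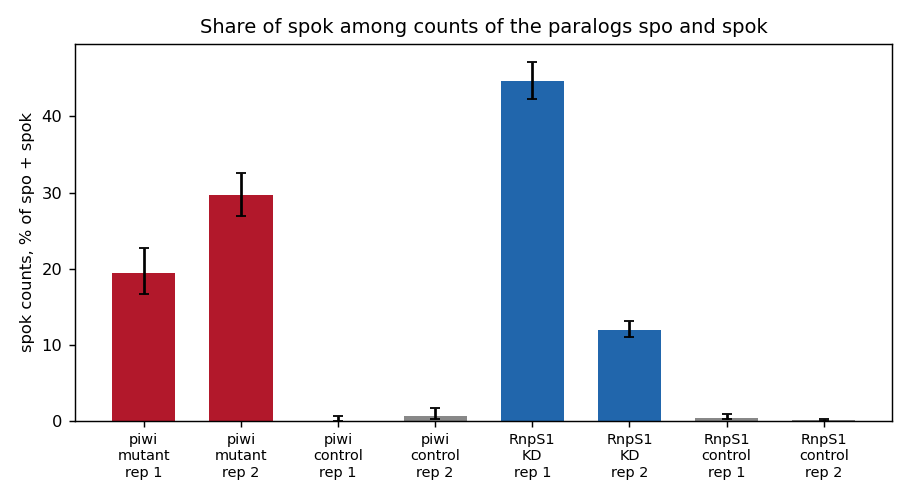
Percent of the summed spo and spok reads that were counted to spok, 1 bar per library, with Wilson 95% intervals that cover counting error only. The 4 mutant and KD libraries lie between 11.97% and 44.7%, and the 4 control libraries below 1%.

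The relative that the adult ovary is known to use, spo, did not pass the test in either comparison. It had 11.2 and 14.0 CPM in piwi mutants, against 17.8 and 11.1 CPM in their control, and 11.3 and 35.8 CPM in KD ovaries, against 20.4 and 43.5 CPM in theirs. The groups overlapped in both comparisons. Its log2 fold changes were -0.36 (SE 0.586, edgeR adjusted p = 0.701) and -0.55 (SE 0.582, adjusted p = 0.682).

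The genes beside spok on chromosome 3R had no call. On one side Parp1, which encodes poly(ADP-ribose) polymerase, had log2 fold changes of 0.30 in piwi mutants (edgeR adjusted p = 0.218) and -0.53 in KD ovaries (adjusted p = 0.138). Next to it, Alg-2 had 0.60 (adjusted p = 0.0542) and 0.07 (adjusted p = 0.861), and Tim17b had -0.01 (adjusted p = 0.973) and -0.36 (adjusted p = 0.171). On the other side CR40182 had 1.499 (adjusted p = 0.392) and -0.44 (adjusted p = 0.821), and CR12798 and CR41571 had too few reads to be tested. Beside the place of nvd on chromosome 3L, Snap25, a synaptic vesicle fusion gene, rose in piwi mutants: it had 107 and 130 counts there, against 4 and 9 in the piwi control (log2 fold change 3.84, SE 0.733, adjusted p = 0.0262). In KD ovaries Snap25 had 38 and 35 counts, against 4 and 9 in the RnpS1 control, and did not pass (1.83, SE 0.698, adjusted p = 0.236). The Snap25 call was lost without any 1 of the 4 mutant or piwi control libraries (adjusted p of at most 0.135, with 3.52 to 4.32 on the log2 scale).

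The 25-hydroxylase gene phm passed in the piwi comparison alone, and its differences between the comparisons and between the controls did not pass in edgeR. It had 11.8 and 20.1 CPM in piwi mutants, against 0.802 and 0.211 CPM in their control, groups that stood well apart. In KD ovaries it had 3.02 and 8.01 CPM, against 3.95 and 8.36 CPM in the RnpS1 control, and there the groups overlapped. The rise in piwi mutants was 4.83 on the log2 scale (SE 0.869, edgeR adjusted p = 0.0227), and the pooled counts gave a ratio of 34.2 (exact 95% interval 24.996 to 48.0). The call was lost without any 1 of the 4 libraries compared, with an adjusted p of at most 0.130 and 4.15 to 6.09 on the log2 scale. In KD ovaries the value was -0.27 (SE 0.726, adjusted p = 0.894).

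The piwi control was the low group for phm. The RnpS1 control was higher than the piwi control by 3.59 on the log2 scale (SE 0.828), which missed the threshold in edgeR (adjusted p = 0.0631) and passed it in DESeq2 (adjusted p = 3.76e-05). This contrast shares the piwi control libraries with the piwi comparison, so both rest on the same 30 and 10 reads. The difference between the KD and mutant changes of phm was -5.10 (SE 1.11), with an edgeR adjusted p of 0.107 and a DESeq2 adjusted p of 4.09e-05. By edgeR, none of the 9 genes passed in either of these contrasts, where 0.652% of all genes passed for the difference of changes and 3.85% between the controls. In each of them phm was the only one of the 9 at an unadjusted p under 0.05 and the only call by DESeq2.

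The black box gene sro had the most negative log2 fold change of the 9 genes in piwi mutants, without a call. It had 2.59 and 2.39 CPM there, against 8.47 and 5.48 CPM in the piwi control, and 1.70 and 4.71 CPM in KD ovaries, against 2.09 and 3.63 CPM in the RnpS1 control. The groups stood apart in the piwi comparison and overlapped in the other. The value in piwi mutants was -1.64 on the log2 scale (SE 0.590), with an adjusted p of 0.108 in edgeR and 0.0345 in DESeq2, while in KD ovaries it was 0.06 (SE 0.575, edgeR adjusted p = 0.976).

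The mitochondrial hydroxylase genes dib and sad, and shd, did not pass in either comparison. The 22-hydroxylase gene dib had 3.45 and 4.20 CPM in piwi mutants, against 4.49 and 1.95 CPM in their control, and 1.67 and 4.71 CPM in KD ovaries, against 1.77 and 3.57 CPM in theirs. For the 2-hydroxylase gene sad the values were 6.64 and 8.95 CPM in piwi mutants, against 6.28 and 4.38 CPM in the piwi control, and 2.66 and 7.11 CPM in KD ovaries, against 3.09 and 5.90 CPM in the RnpS1 control. For the 20-hydroxylase gene shd they were 3.13 and 3.83 CPM in piwi mutants, against 3.37 and 3.45 CPM in the piwi control, and 2.28 and 4.34 CPM in KD ovaries, against 3.08 and 4.13 CPM in the RnpS1 control. Of these 3 genes only sad in piwi mutants lay wholly above its control, and it was 0.39 on the log2 scale (SE 0.563, edgeR adjusted p = 0.661). The other log2 fold changes lay between -0.23 and 0.15, with SE from 0.439 to 0.672.

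**Figure D3:**
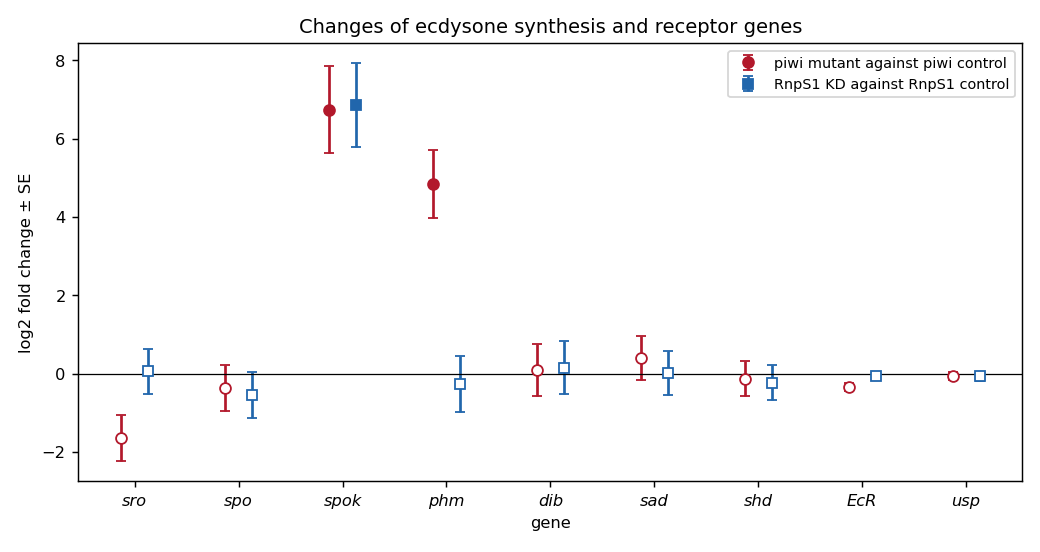
Log2 fold change of each gene in piwi mutants against their control and in KD ovaries against theirs, with SE bars from the edgeR fit over 8 libraries; filled points passed an adjusted p of 0.05. spok passes in both comparisons at 6.74 and 6.86, phm in piwi mutants alone at 4.83, and the other points are open.

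The replicates of the KD and of the RnpS1 control differed more for the 6 enzymes other than spok than for EcR and usp. In KD ovaries, replicate 2 had between 1.90 times (shd) and 3.16 times (spo) the CPM of replicate 1 for these 6 enzymes, and 1.13 and 1.04 times for EcR and usp. In the RnpS1 control these ratios lay between 1.34 (shd) and 2.13 (spo), and those of EcR and usp were 0.923 and 0.876. The summed eggshell markers had ratios of 3.59 and 2.27 in the same pairs of libraries. In the piwi control, where the eggshell ratio was 0.730, 5 of the 6 enzymes had ratios of 0.264 to 0.697 and shd had 1.02. Thus these enzymes and the eggshell markers were mostly high in the same library of these pairs. Some other summed markers were high in the same libraries. The ratios in KD ovaries, the RnpS1 control and the piwi control were 1.90, 2.31 and 0.636 for muscle markers and 3.81, 5.83 and 0.308 for haemocyte markers. They were 4.35, 1.54 and 0.706 for yolk protein markers and 1.15, 1.27 and 0.595 for early follicle cell markers. Of the latter, Fas3 had 123 and 70.7 CPM in replicates 1 and 2 of the KD. Every other early follicle cell marker was higher in replicate 2 of the KD, such as peb at 37.3 and 60.3 CPM. Summed fat body, gut, endocrine gland and brain, and germline markers did not follow in KD ovaries, at 0.866, 0.868, 0.942 and 0.948. In that order they had 1.82, 0.00227, 1.54 and 1.02 in the RnpS1 control, and 0.737, 1.02, 0.393 and 0.937 in the piwi control. The fat body sum in KD ovaries turned on Tsf1, at 38.2 CPM in replicate 1 and 9.29 CPM in replicate 2. Every other fat body marker was higher in replicate 2 of the KD. In piwi mutants the eggshell ratio was 2.66, and the 6 enzymes had 0.924 (sro) to 1.70 (phm). The ratios there were 1.65 for muscle, 1.90 for haemocyte, 1.13 for yolk protein and 1.10 for early follicle cell markers. They were 2.85 for fat body, 1.74 for endocrine gland and brain, and 1.09 for germline markers. Gut markers had a ratio of 71.5 in piwi mutants, from sums of 0.257 and 18.4 CPM. For spok the direction was opposite to the eggshell markers in KD ovaries, at 0.532, and in the RnpS1 control, at 0.258 from 6 reads and 1 read, and the same in piwi mutants, at 2.19. The part of these markers in the enzyme levels was not tested.

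**Figure D4:**
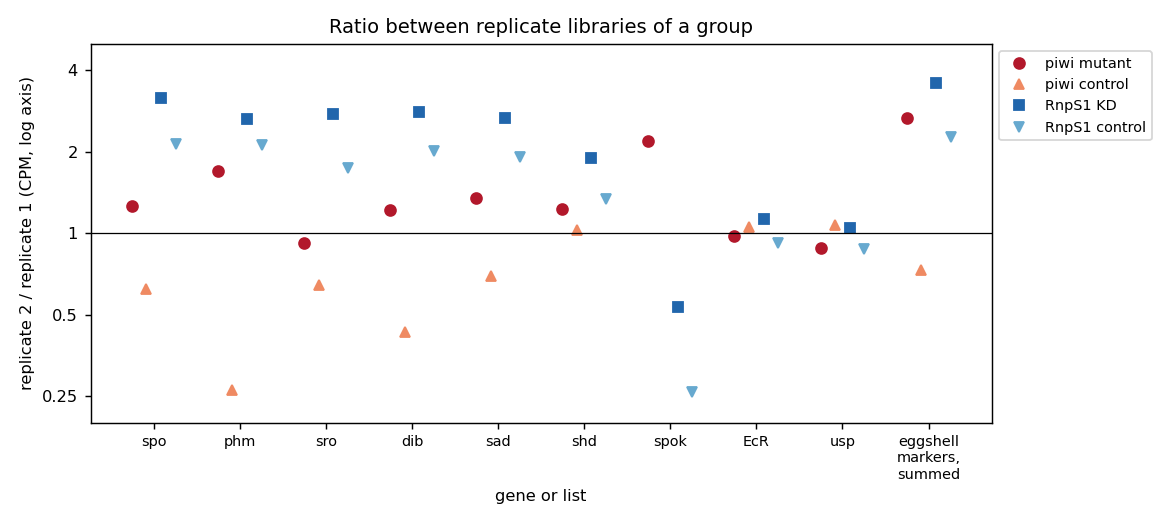
Ratio of CPM in replicate 2 to CPM in replicate 1 within each group, on a log axis, for the 9 genes and for the summed 17 eggshell markers; spok in the piwi control has none, with 0 reads in replicate 1. In KD ovaries the enzymes other than spok lie at 1.90 to 3.16 and the eggshell markers at 3.59, while EcR and usp lie near 1 in all groups.

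The receptor genes varied little. EcR, which binds the hormone, had 141 and 137 CPM in piwi mutants, against 155 and 163 CPM in their control, and 145 and 164 CPM in KD ovaries, against 154 and 142 CPM in theirs. Both mutant libraries were below both piwi control libraries, and the groups overlapped in the RnpS1 comparison. The log2 fold change of EcR was -0.35 in piwi mutants (SE 0.103), with an adjusted p of 0.0671 in edgeR and 0.0155 in DESeq2, and it was -0.05 in KD ovaries (SE 0.102, edgeR adjusted p = 0.844). Its partner usp had 151 and 133 CPM in piwi mutants, against 128 and 138 CPM in the piwi control, and 151 and 157 CPM in KD ovaries, against 159 and 140 CPM in the RnpS1 control. The groups overlapped in both comparisons, with log2 fold changes of -0.07 in each (SE 0.109, edgeR adjusted p = 0.710 and 0.794).

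Genes that supply sterol and electrons to the pathway or control it were read as a list of 17, of which 15 were tested. In piwi mutants 1 rose and 1 fell in edgeR, near the share of all genes called (11.4%). There 4 higher and 2 lower had an unadjusted p under 0.05, and DESeq2 called 3 higher and 2 lower. In KD ovaries none passed in edgeR (1.62% of all genes did), where 4 higher and 1 lower had an unadjusted p under 0.05 and DESeq2 called 2 higher and 1 lower. The median log2 fold changes were 0.57 and 0.18. The gene that rose, Npc1a, moves sterol out of late endosomes. It had 138 and 145 CPM in piwi mutants, against 94.3 and 73.1 CPM in the piwi control (0.60 on the log2 scale, SE 0.143, adjusted p = 0.0424). The gene that fell, mld (molting defective), encodes a zinc finger protein known to activate nvd and spok in the larval prothoracic gland. It had 199 and 214 CPM in piwi mutants, against 307 and 273 CPM in the piwi control (-0.65, SE 0.162, adjusted p = 0.0476), and 200 and 271 CPM in KD ovaries, against 328 and 341 CPM in the RnpS1 control (-0.62, adjusted p = 0.113). Neither call held without any 1 of the 4 mutant or piwi control libraries or of the 2 RnpS1 control libraries, with 0.43 to 0.82 for Npc1a (adjusted p of at most 0.201) and -0.73 to -0.54 for mld (at most 0.209). With library totals mld was -0.49 (adjusted p = 0.0873). The activator ouib (ouija board), also known for its action on spok in that gland, was looked up after values had been seen. It had 10 and 10 counts in piwi mutants, against 3 and 6 in their control. In KD ovaries ouib had 7 and 4 counts, against 1 and 0 in the RnpS1 control, too few for the test. The list members vvl and kni, also looked up after values had been seen, did not pass in edgeR. Their log2 fold changes were 1.23 and 1.68 in piwi mutants (adjusted p = 0.404 and 0.422). In KD ovaries they were -0.35 and 1.73 (adjusted p = 0.894 and 0.589). The abundant members tor, the receptor of the hormone Ptth, and Fdx2, a ferredoxin, did not pass, with -0.42 and -0.32 in piwi mutants (adjusted p = 0.204 and 0.0914) and -0.31 and 0.18 in KD ovaries (adjusted p = 0.488 and 0.440).

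Of 21 tested genes known to respond to ecdysone, 1 fell in piwi mutants in edgeR, where 5.06% of all genes fell. There 2 higher and 3 lower had an unadjusted p under 0.05, and DESeq2 called 2 higher and 3 lower. None passed in KD ovaries in edgeR, where 2 lower ones had an unadjusted p under 0.05 and DESeq2 called 2 lower. The medians were -0.09 and -0.19. The gene that fell was Hr39, a nuclear receptor, with 72.2 and 69.5 CPM in piwi mutants, against 80.4 and 93.9 CPM in the piwi control (-0.46, SE 0.107, edgeR adjusted p = 0.0410). This call was lost without the same 6 libraries in turn (-0.54 to -0.34, adjusted p of at most 0.226), with library totals (-0.30, adjusted p = 0.116) and with no filter (adjusted p = 0.0519). The most abundant others, the nuclear receptor ftz-f1 and the zinc finger gene crol, had 0.03 and -0.13 in piwi mutants (adjusted p = 0.865 and 0.499) and -0.37 and -0.24 in KD ovaries (adjusted p = 0.107 and 0.368).

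Among 9 tested partners and chromatin cofactors of the receptor, 1 fell in piwi mutants in edgeR, a share near the 11.4% of all genes called in either direction. There 1 higher and 3 lower had an unadjusted p under 0.05, and DESeq2 called 1 higher and 2 lower. None passed in KD ovaries in edgeR, where 3 lower ones had an unadjusted p under 0.05 and DESeq2 called 1 lower. The medians were -0.08 and -0.19. E(bx), a subunit of the NURF remodeller, had 738 and 709 CPM in piwi mutants, against 1039 and 1079 CPM in the piwi control (-0.71, SE 0.124, edgeR adjusted p = 0.0211). Its call was lost without any 1 of the 4 mutant or piwi control libraries (-0.72 to -0.68, adjusted p of at most 0.144). The cofactor rig had -0.41 (adjusted p = 0.0637) and -0.53 (adjusted p = 0.0812), and the histone demethylase Utx had -0.08 (adjusted p = 0.622) and -0.27 (adjusted p = 0.237). None of the 3 tested juvenile hormone genes passed in either comparison by edgeR, at an unadjusted p under 0.05 or by DESeq2. Their medians were 0.04 and 0.00, with the hormone's receptors Met at 0.04 and 0.00 and gce at -0.20 and -0.31.

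**Figure D5:**
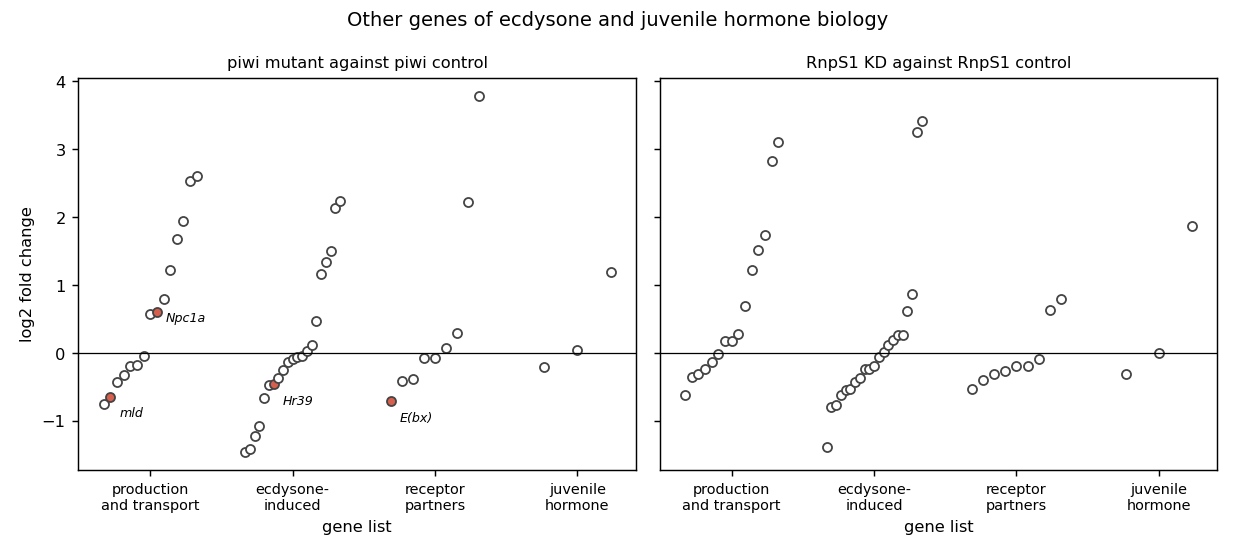
Log2 fold changes of the tested genes of the 4 lists around the pathway, 1 point per gene, in piwi mutants and in KD ovaries against their controls. The lists hold 15 genes of production and transport, 21 that respond to ecdysone (labelled ecdysone-induced), 9 receptor partners and 3 of juvenile hormone. Filled points passed an adjusted p of 0.05 and are named. Npc1a lies at 0.60, mld at -0.65, Hr39 at -0.46 and E(bx) at -0.71 in piwi mutants, and no point is filled in KD ovaries.

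Markers of other cells moved with the rise of spok and phm in piwi mutants. The 3 haemocyte markers all rose and summed to 238 and 451 CPM in piwi mutants, against 16.1 and 4.97 CPM in the piwi control. Of 9 fat body markers 3 rose, with sums of 356 and 1015 CPM in piwi mutants, against 74.8 and 55.1 CPM. No muscle marker of 9 passed in edgeR (4 higher at an unadjusted p under 0.05, 1 higher by DESeq2), and they summed to 1829 and 3020 CPM in piwi mutants, against 882 and 560 CPM. Of the 17 eggshell markers 4 fell in edgeR (13 lower at an unadjusted p under 0.05, 10 lower by DESeq2). Among all genes tested in this comparison, 6.37% rose and 5.06% fell. In KD ovaries, where spok rose as well, no gene of these 4 lists passed in edgeR, at an unadjusted p under 0.05 or by DESeq2. The sums overlapped between groups. Haemocyte markers had 7.74 and 29.5 CPM in KD ovaries, against 5.35 and 31.2 CPM, and muscle markers 687 and 1305 CPM, against 578 and 1336 CPM. Fat body markers had 127 and 110 CPM, against 85.0 and 155 CPM, and eggshell markers 4452 and 15961 CPM, against 10626 and 24087 CPM. All 17 eggshell markers had negative log2 fold changes in KD ovaries (median -0.90), as in piwi mutants (median -3.61). No haemocyte or muscle marker was at 0 in any library; 4 fat body markers were at 0 in replicate 2 of the piwi control and 1 in replicate 1 of the KD. The part of these 4 lists in the changes of spok and phm in piwi mutants, and of spok in KD ovaries, was not tested.

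Germline markers also moved with spok and phm in piwi mutants, where 3 of 7 tested passed, against 11.4% of all genes. The differentiation factor gene bam rose, with 158 and 152 CPM in piwi mutants, against 48.5 and 74.0 CPM in the piwi control (1.19 on the log2 scale, edgeR adjusted p = 0.0436). The oocyte patterning genes osk and bcd fell (-0.71 and -0.58, adjusted p = 0.0167 and 0.0339). The germline markers summed to 2470 and 2704 CPM in piwi mutants, against 3380 and 3166 CPM, and to 3396 and 3220 CPM in KD ovaries, against 3361 and 3443 CPM. Their part in the changes of spok and phm was not tested. The 7 early follicle cell, 3 yolk protein and 4 gut markers, and the 2 tested endocrine gland and brain markers, had no call in edgeR in either comparison. At an unadjusted p under 0.05 these 4 lists held 2, 0, 0 and 1 genes in piwi mutants and 2, 0, 0 and 1 in KD ovaries, and DESeq2 called 1, 0, 0 and 0 in piwi mutants and 2, 0, 0 and 0 in KD ovaries. For germline markers in KD ovaries there was no call in edgeR or DESeq2, and 1 gene had an unadjusted p under 0.05. The endocrine gland and brain markers were low, and their values lay mostly above the control libraries in piwi mutants and KD ovaries, without a call. The brain hormone gene Ptth had 48 and 24 counts in piwi mutants, against 10 and 4 in their control, and 36 and 11 in KD ovaries, against 4 and 0 in theirs. Its log2 fold changes were 1.94 (adjusted p = 0.269) and 3.11 (adjusted p = 0.258). The neuronal gene elav had 8.83 and 16.8 CPM in piwi mutants, against 6.71 and 2.66 CPM, and 7.18 and 7.04 CPM in KD ovaries, against 2.85 and 4.46 CPM (1.30 and 0.85 on the log2 scale, adjusted p = 0.146 and 0.460). The gene jhamt, an enzyme of the corpus allatum, had 6 and 7 counts in piwi mutants, against 2 and 1, and 6 and 3 in KD ovaries, against 0 and 0. The hormone gene Akh had 6 and 5 counts in piwi mutants, against 1 and 0, and 11 and 20 in KD ovaries, against 3 and 3. The whole list summed to 10.1 and 17.5 CPM in piwi mutants, against 7.05 and 2.77 CPM, and to 7.88 and 7.43 CPM in KD ovaries, against 2.94 and 4.52 CPM, and its part in the changes of spok was not tested.

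Patterns over the 8 libraries most like that of a gene are given as Pearson's r of log2 CPM, a description over libraries that share groups and depth. For spok the most alike named genes were Ppi1 (r = 0.975) and CG18249 (r = 0.975), and Ppi1 had 10 and 15 counts in piwi mutants, against 0 and 1 in their control, and 25 and 23 in KD ovaries, against 0 and 1 in theirs. For phm they were CG4250 (r = 0.985), CG13919 (0.970) and RFeSP (0.963). Nearest to spo was CG7011 (0.990), to sro Patronin (0.975), to sad CG13067 (0.981), to shd Patj (0.958), to EcR Taf4 (0.993) and to usp Rox8 (0.975). No other of the 9 genes was among the 3 genes most like any of them.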

How the data were processed

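Per the labels' protocols, ovary RNA was depleted of ribosomal RNA and sequenced with a strand-specific protocol. The authors deposited raw read counts per gene for each library. Their processing notes list the builds dm3 and BDGP5 and, without order, DESeq, HTSeq 0.5.3p9, TopHat2 2.0.9 and CASAVA 1.8.2 and 1.8. The deposited gene counts are labelled reverse, and the strand setting of the counting is not otherwise given in the sources used here. Counts per transposon family were not used. The 5 rows that name no gene were left out: reads on no feature were 1.905 to 10.67% and ambiguous reads 1.189 to 1.634% of a library's gene, no-feature and ambiguous reads.

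Symbols came from a gene name table and an Ensembl annotation of build BDGP6, which matched 15002 of 15682 identifiers; phm is listed there as phtm and was matched through its RefSeq synonym. Only names, exon lengths, overlaps and neighbour order were taken from that build. In it, exons of sro, spo, dib, sad and usp overlap those of genes on the other strand, and usp also overlaps Actn on its own strand, so their counts are less certain; those of spok, phm, shd and EcR overlap none.

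CPM divides a count by the library's sum over gene rows. Tests used edgeR 4.0.16 in R 4.3.3 (filterByExpr, TMM, glmQLFit with 1 term per group over 8 libraries, 10434 genes, Benjamini-Hochberg adjustment over all of them, threshold 0.05; SE is the log2 fold change over the root of its F), tested on simulated data. The common dispersion was 0.104 with 4 residual degrees of freedom. Exact binomial and Wilson intervals are at 95%, and a count of 0 allows up to 3 counts. Genes named beyond the 9 are those of a list that passed and up to 2 of highest mean CPM per list that did not pass. The 3 genes on each side of spok and nvd, and the 3 most alike by Pearson's r, are named too. The untested markers jhamt and Akh fall outside this rule, and with them the whole endocrine gland and brain list is given. Other exceptions are said to be chosen after values were seen. Alternatives were DESeq2 1.42.0, library totals, no filter, a replicate block, each comparison alone, and leaving out each library. The genes, lists and tests were chosen with earlier results of these data known.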

Additional observations from a re-analysis of the deposited data

How the results depend on the processing

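The number of the 9 genes called was 2 in piwi mutants, 1 in KD ovaries, and 0 both for the difference of changes and between the controls. It became 4, 1, 1 and 1 with DESeq2, and 1 between the controls (phm, adjusted p = 0.0425) with no filter. With each comparison fitted alone it was 2 in piwi mutants and 0 in KD ovaries (spok, adjusted p = 0.102), with 5 genes called in all against 169. Leaving out 1 library, where the lone library left in a group is taken to vary like the other groups, gave 0 to 2 in piwi mutants and 0 to 1 in KD ovaries, and 0 in both other contrasts. Counts over all genes by DESeq2 were 2478 against 1193 in piwi mutants, 1001 against 169 in KD ovaries, 789 against 68 for the difference and 1456 against 402 between the controls. The labels do not say that replicate numbers mark a shared batch, and with 2 pairs the numbers were not taken as pairs. Deviations of same-numbered libraries correlated at -0.177 in the piwi comparison and 0.207 in the RnpS1 comparison over 10434 genes. With a replicate block the calls were 2 and 1, and the calls of Npc1a, mld, Hr39 and Snap25 in piwi mutants were lost (adjusted p = 0.0617, 0.0576, 0.0624 and 0.0516); over all genes 770, 108, 58 and 235 were called, against 1193, 169, 68 and 402. With no filter, 254 and 120 were called in KD ovaries and for the difference. The crossed pairing of the piwi comparison, chosen after seeing the data, gave 3, with 2139 calls over all genes. With the controls fitted alone 135 genes were called. The Npc1a call was also lost with the comparison fitted alone (adjusted p = 0.0513).

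Signs of uncalled log2 fold changes turned under some settings. With library totals, shd and usp were 0.0299 and 0.0938 in piwi mutants, and EcR and usp 0.0617 and 0.0450 in KD ovaries. In KD ovaries the replicate block gave -0.0751 for sro and -0.0871 for sad, and no filter gave -0.0126 for sad. Leaving out 1 library gave ranges in piwi mutants of -0.66 to 0.0438 for spo, -0.39 to 0.84 for dib, -0.29 to 0.0311 for shd and -0.14 to 0.0166 for usp. In KD ovaries it gave -0.88 to 0.62 for sro, -1.63 to 0.0932 for spo, -1.16 to 0.37 for phm, -0.80 to 0.74 for dib, -0.89 to 0.56 for sad, -0.79 to 0.16 for shd, -0.16 to 0.04 for EcR and -0.17 to 0.0171 for usp. For the difference of changes, spok ranged from -4.08 to 1.39. The cause was not tested in these cases. The direction of spok and of phm in piwi mutants, and of spok in KD ovaries, held under every setting run. In the contrasts of the difference and of the controls, single values were recomputed for spok (difference alone) and phm. The 2 libraries per group limit the precision throughout, and the low counts of spok in the controls (0, 3, 6 and 1) limit its fold changes.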
